A study of Homo sapiens with 8 samples.

Results

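RNA splicing factor genes were defined as every gene whose name matched the naming pattern of one of 11 families: SRSF, HNRNP, SF3A and SF3B, the lettered SNRP genes, U2AF, ESRP, RBFOX, numbered RBM, CELF, MBNL and PTBP. The rule used names only and no measured value. It found 104 genes, all of them among the 14070 genes measured at day 0 and 97 of them among the 11644 genes measured at day 2, of which 96 had enough counts to be tested. The libraries came from H1, an established human embryonic stem cell line, in 2 genotypes: SETD7 knockout (KO) and wild type (WT). SETD7 encodes a lysine methyltransferase that acts on histone H3 and on other proteins. Cells of both genotypes were placed in a differentiation protocol towards blood. They were sampled at day 0, with 1 KO and 1 WT library, and at day 2, with 3 KO and 3 WT libraries. The day 0 values were deposited as FPKM, fragments scaled by transcript length and library size, and the day 2 values as read counts, given here as CPM, counts scaled by TMM-adjusted library size. The sources used here do not say how the knockout was made or whether it is 1 clone. Nor do they give the replicates as cultures grown apart. The p-values therefore reflect the spread among these libraries alone, which could be technical.

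Splicing removes introns from a pre-mRNA. The U1 and U2 particles first mark the splice sites, a larger spliceosome then assembles, and the exons are joined. SR proteins mostly promote the use of nearby exons and hnRNP proteins often oppose it, while families such as ESRP, RBFOX, CELF and MBNL set the exon choices of particular cell types. Many of these proteins also bind their own transcripts, and in pluripotent cells a distinct set of exon choices is known to change as cells differentiate.

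The day 2 libraries held 27880068 to 39553614 counts. SETD7 itself was at 32.9, 28.9 and 33.7 CPM in the KO libraries, against 54.8, 56.2 and 55.6 CPM in the WT libraries, and every KO library was below every WT library. At day 0 it was listed at 1.48 FPKM in KO and 3.53 FPKM in WT. The sources used here do not name the disrupted part of the gene. Of the cell type marker lists, 2 of 5 pluripotency genes were called higher in KO at day 2 and 1 lower, and 2 of 6 primitive streak and mesoderm genes were called higher and 2 lower. The mesoderm genes summed to 3864 to 3919 CPM in KO and 3791 to 3839 CPM in WT, so both genotypes had markers of early mesoderm. No neural ectoderm or blood marker was among the genes tested.

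At day 2, splicing factor transcripts were more often lower than higher in the knockout. Among the 96 tested genes, 29 (30.2%) were called lower in KO and 5 (5.21%) were called higher, at a Benjamini-Hochberg adjusted p under 0.05 over 11475 genes in edgeR's quasi-likelihood test. Over all genes tested, 11.0% were called lower and 12.3% higher, so the share called lower was above its background and the share called higher below it. Below, day 2 values are listed for replicates 1, 2 and 3 of each genotype, means are given ± SD (n = 3 libraries), fold changes ± SE, and p-values come from that same test. The differences were small. The called members differed by 0.089 to 0.53 on the log2 scale, with a median of 0.16, and 28 of the 34 differed by less than 1.2-fold. The fitted log2 fold change was below 0 in 77.1% of the members, against 50.6% of all genes. Its median was -0.055 over the members and -0.0026 over all genes tested. Summed over the members, the level was 28957 to 29820 CPM in KO and 30354 to 31419 CPM in WT, so the genotypes did not overlap. The sum of the splicing genes outside these families, given below, did not overlap either. In bulk RNA, fewer cells of a type and less RNA per cell cannot be told apart.

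**Figure D1:**
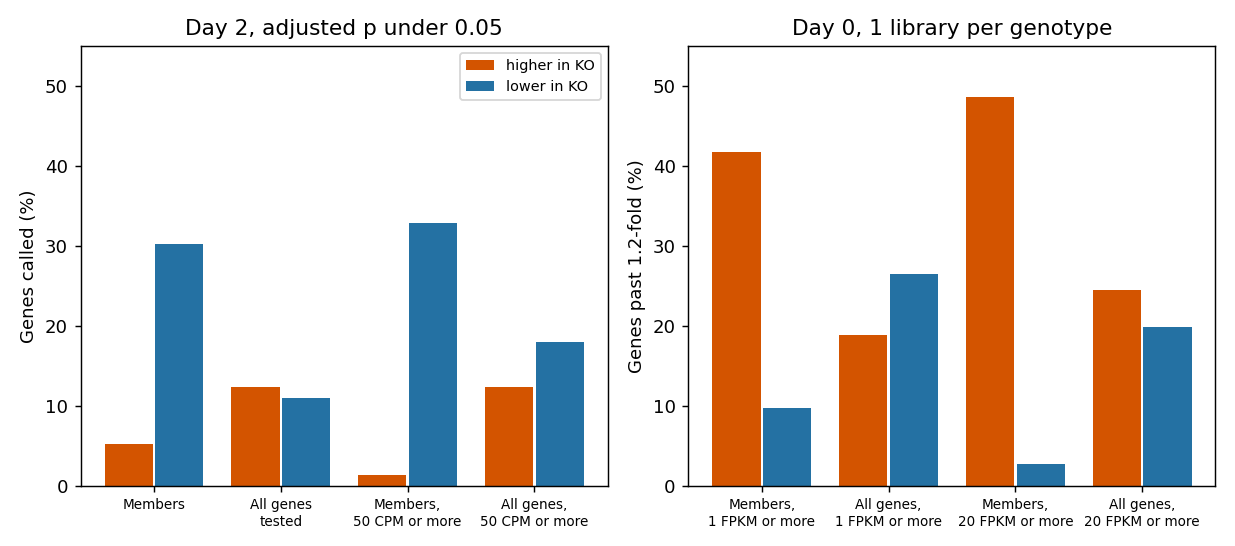
Bars show the percentage of genes higher (orange) or lower (blue) in KO than in WT, for the splicing factor genes and for all genes. At day 2 (left, adjusted p under 0.05) 30.2% of the members were lower against 11.0% of all genes; at day 0 (right, past 1.2-fold, 1 library per genotype) 41.7% of the members were higher against 18.9% of all genes.

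Abundant genes were called lower more often than rare ones, and most members were abundant. Restricted to a mean level of 50 CPM or more, a limit chosen after the data were seen, 24 of 73 members (32.9%) were called lower and 1 was called higher. The matching backgrounds were 18.0% lower and 12.3% higher over 4479 genes. At that level the median log2 fold change was -0.059 over the members and -0.024 over all genes. The libraries of the 2 genotypes did not overlap for 41 members (42.7%), against 37.7% of all genes tested. Of the members called, 27 of the 29 lower and all 5 higher had libraries that did not overlap between genotypes. The calls were made on these same libraries, so this lack of overlap is not separate evidence for them. Tested against a 1.2-fold change in place of no change, ESRP1 was the only member called (adjusted p 0.00138). After offsets for GC content and transcript length, 45 members were called lower and 4 higher, while the calls over all genes became 1295 higher and 2145 lower, against 1406 higher and 1262 lower without them. Without WT replicate 3, 21 members were called lower and none higher.

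**Figure D2:**
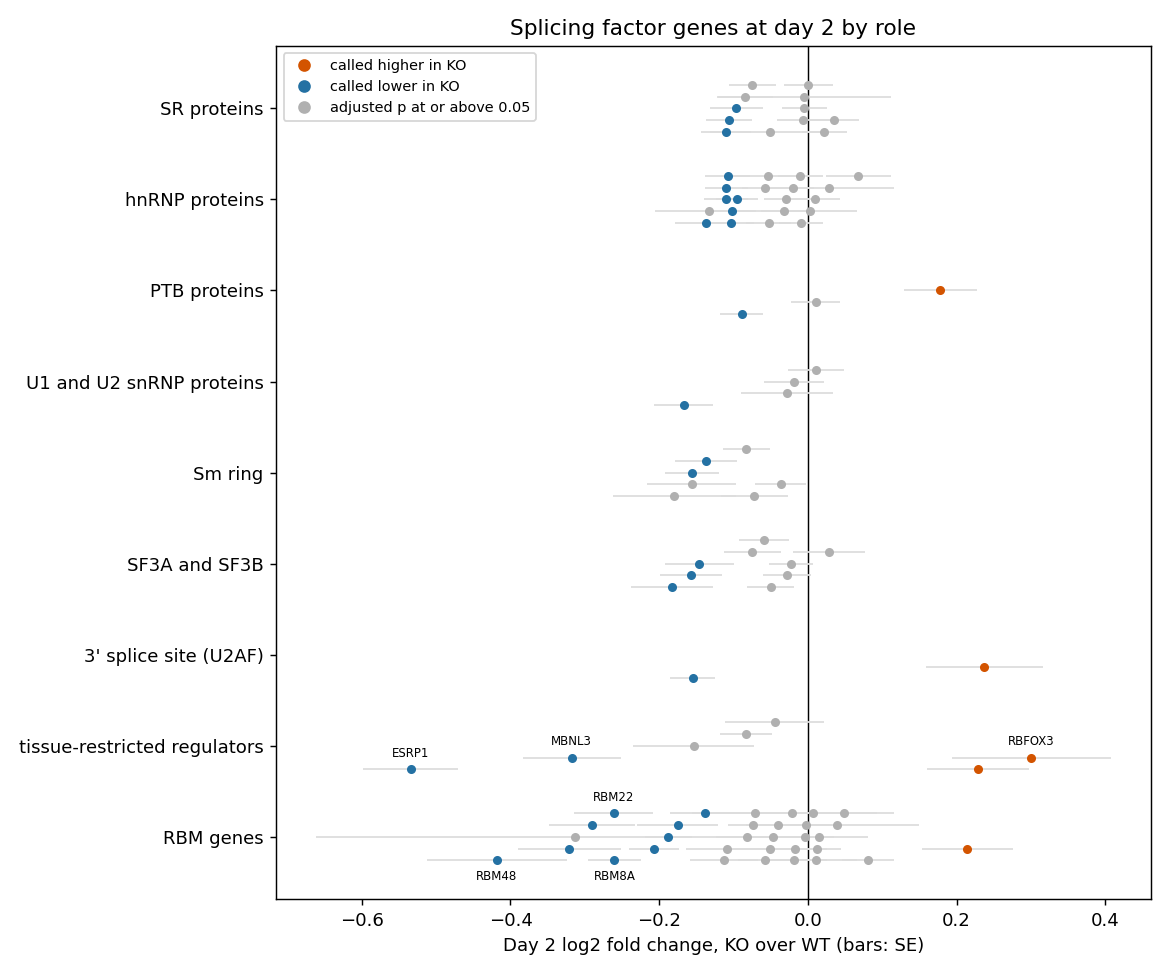
Each point is 1 of the 96 tested splicing factor genes, placed by its day 2 log2 fold change (KO over WT, x axis, bars show the SE) and grouped by role. ESRP1 lies farthest to the left at -0.53, all 7 Sm ring genes lie left of 0, and the 5 genes called higher (orange) are in 4 of the 9 groups.

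The largest difference was in a regulator of epithelial exon choice. ESRP1 (chr8:94641074-94707466, GRCh38, + strand) encodes a protein that maintains epithelial splice forms of genes such as FGFR2 and CD44. It was at 23.2, 23.4 and 24.0 CPM in the KO libraries, against 32.2, 34.4 and 35.4 CPM in the WT libraries. Every KO library was below every WT library. The log2 fold change was -0.53 ± 0.064, with an adjusted p of 7.60e-08, and the call was kept in each of the 14 other fits across libraries, scalings and filters. Its paralog ESRP2 averaged 17.4 ± 1.45 CPM in KO and 19.4 ± 1.59 CPM in WT, with a log2 fold change of -0.15 ± 0.082 and an adjusted p of 0.178, and was not called. Beside ESRP1, 3 of the 5 epithelial marker genes tested were called lower in KO. They were EPCAM, a surface adhesion protein (log2 fold change -0.25), and the keratins KRT8 (-0.27) and KRT18 (-0.26). The others were not called and had fold changes above 0. CDH1, the adhesion protein E-cadherin, averaged 31.2 ± 1.48 CPM in KO and 27.7 ± 2.39 CPM in WT (log2 fold change 0.17, adjusted p 0.0715), and CLDN6, a tight junction protein, averaged 106.6 ± 0.89 CPM in KO and 103 ± 3.76 CPM in WT (log2 fold change 0.05, adjusted p 0.449). The epithelial list summed to 930 to 976 CPM in KO and 1095 to 1132 CPM in WT, and most of that sum was KRT8, which averaged 626 ± 14.8 CPM in KO and 753 ± 16.0 CPM in WT. Their part in the ESRP1 result was not tested.

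The other tissue-restricted regulators moved in both directions, and of the 7 tested, 2 were called lower and 2 higher. Over all genes tested, 11.0% were called lower and 12.3% higher. MBNL3 (chrX:132369317-132489968, - strand), a muscleblind-family RNA-binding protein, was at 22.6, 22.4 and 23.6 CPM in KO and 29.02, 28.6 and 27.9 CPM in WT. It fell, with no overlap between genotypes (log2 fold change -0.32 ± 0.066, adjusted p 0.000435). CELF2, a CUG-binding regulator of exon choice in muscle and brain, was at 27.4, 27.1 and 25.6 CPM in KO and 24.3, 21.7 and 22.4 CPM in WT. It rose by 0.23 on the log2 scale (SE 0.069, adjusted p 0.0131), and the adjusted p was 0.095 without WT replicate 2 and 0.0522 without WT replicate 3. RBFOX3, known as the neuronal nuclear antigen NeuN, was at 10.3, 9.73 and 9.61 CPM in KO and 8.10, 8.23 and 7.73 CPM in WT. Its log2 fold change was 0.30 ± 0.11 (adjusted p 0.0378), but the call was lost on leaving out any one of the 6 libraries, with adjusted p-values of 0.0586 to 0.118. It was also lost in DESeq2 (0.0502) and with the GC content and length offsets (0.0792). RBFOX2, the family member linked to splicing in embryonic stem cells, averaged 26.9 ± 1.31 CPM in KO and 27.7 ± 1.74 CPM in WT and was not called (log2 fold change -0.04 ± 0.067, adjusted p 0.684). MBNL1, MBNL2, RBFOX1, CELF4 and CELF5 were measured at day 0 and are not analysed here at day 2.

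The RBM genes made up the largest family, with 32 tested, and RBM means only that the protein has an RNA-binding motif: not every one is a splicing factor. In KO, 9 were called lower and 1 higher, against 11.0% and 12.3% of all genes tested. RBM48, which takes part in splicing of the minor, U12-type introns, was at 9.64, 10.4 and 9.68 CPM in KO and 13.1, 13.5 and 13.1 CPM in WT. It fell, with no overlap (log2 fold change -0.42 ± 0.094, adjusted p 0.00111). RBM8A encodes the exon junction complex protein Y14, which is deposited on mRNA upstream of each junction formed by splicing. It was at 146, 148 and 155 CPM in KO and 180.3, 177 and 181 CPM in WT, a log2 fold change of -0.26 ± 0.035 (adjusted p 8.95e-07). RBM22 contacts the RNA at the catalytic centre of the spliceosome. It was at 46.7, 53.3 and 49.8 CPM in KO and 62.3, 58.0 and 59.2 CPM in WT, a log2 fold change of -0.26 ± 0.053 (adjusted p 0.000375). RBM39 is a splicing factor related to U2AF2 and a coactivator of transcription. It was at 291, 294 and 290.0 CPM in KO and 344, 328 and 324 CPM in WT, a log2 fold change of -0.19 ± 0.032 (adjusted p 3.40e-05). For RBM8A, RBM22 and RBM39 too, every KO library was below every WT library.

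Others of the RBM genes that fell act elsewhere in RNA metabolism. RBM7, a subunit of the complex that delivers nuclear RNA to the exosome for decay, was at 38.7, 42.7 and 40.3 CPM in KO and 53.4, 46.8 and 48.7 CPM in WT (log2 fold change -0.29 ± 0.058, adjusted p 0.000259). RBM3, a cold-inducible RNA-binding protein, was at 289.6, 312 and 314 CPM in KO and 354, 345 and 358 CPM in WT (log2 fold change -0.21 ± 0.033, adjusted p 1.49e-05). RBM4B was at 23.5, 22.7 and 21.4 CPM in KO and 30.0, 28.5 and 26.1 CPM in WT (log2 fold change -0.32 ± 0.069, adjusted p 0.000715), and the genotypes did not overlap for any of these genes. RBM4B is the close paralog of its neighbour RBM4, and exons of the pair overlap on opposite strands of chromosome 11. Since the strand setting of the counting is not given, reads of the pair may have been split between them, and RBM4 was low at 10.52 ± 1.28 CPM in KO and 10.3 ± 1.45 CPM in WT. RBM4 also shares exons on its own strand with RBM14-RBM4, an overlap that the strand setting does not resolve. How reads of these genes were assigned was not tested. RBM27 (log2 fold change -0.18 ± 0.055, adjusted p 0.0178) and RBM19 (log2 fold change -0.14 ± 0.046, adjusted p 0.0265), which acts in ribosome assembly, were called lower in the full fit. The RBM27 call was lost without KO replicate 1 (adjusted p 0.0507), KO replicate 3 (0.0963) or WT replicate 3 (0.133), and the RBM19 call without KO replicate 3 (0.0801) or WT replicate 1 (0.125) and with upper-quartile scaling (0.0508). The RBM gene called higher was RBM24, known from mouse as a regulator of muscle and heart exons, at 41.2, 46.2 and 43.8 CPM in KO and 40.6, 38.02 and 34.4 CPM in WT. Its log2 fold change was 0.21 ± 0.061 (adjusted p 0.00929), and the adjusted p was 0.0565 without KO replicate 2 and 0.109 without WT replicate 3.

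**Figure D3:**
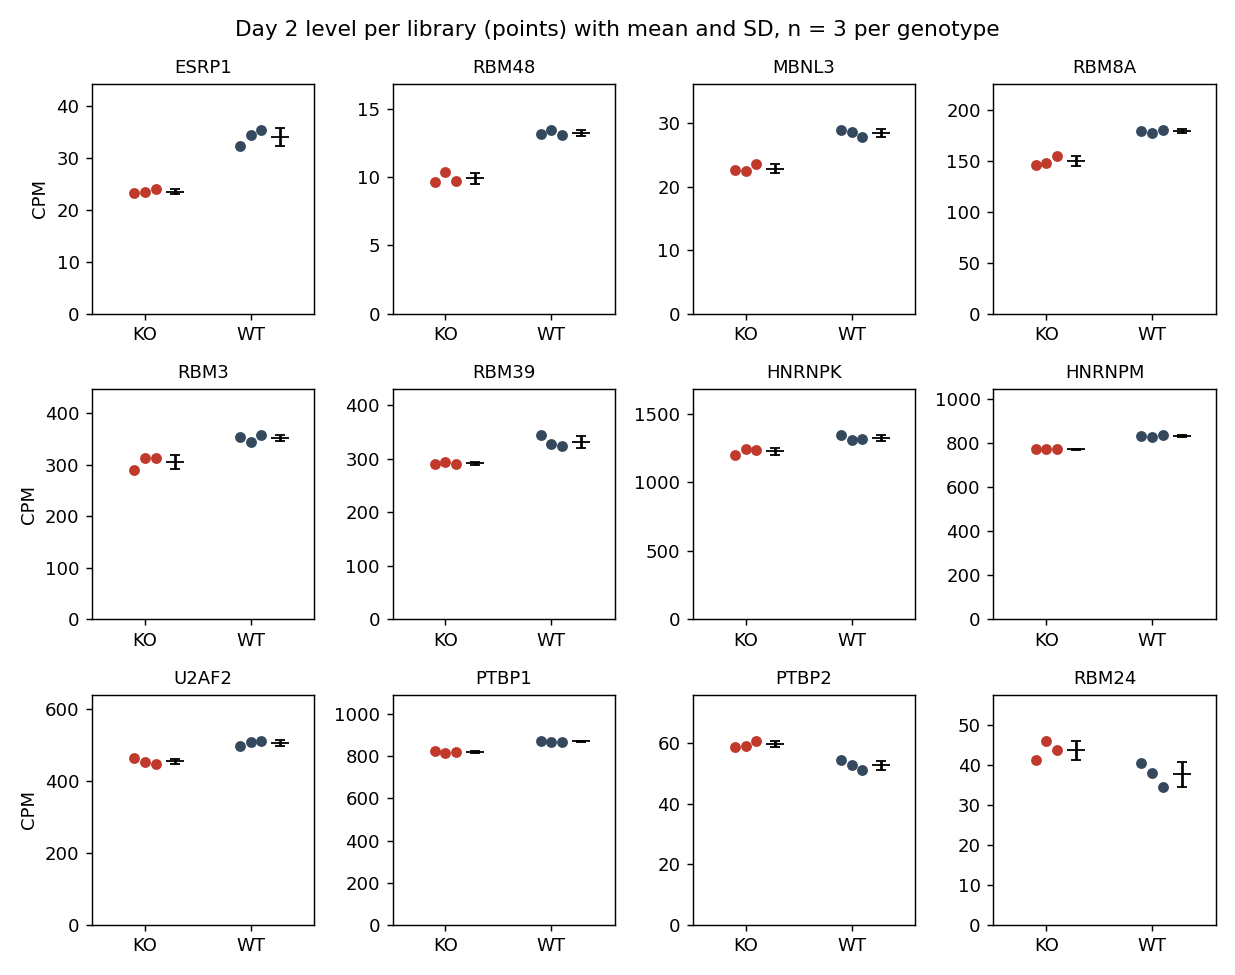
Day 2 level in CPM (y axis, from 0) of 12 splicing factor genes in each of the 3 KO and 3 WT libraries (points), with the mean and SD beside them. In every panel the 3 KO libraries lie on one side of the 3 WT libraries: below them from ESRP1 to PTBP1, above them for PTBP2 and RBM24.

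The sequences before the start of several of these genes are printed because the genes moved together in one direction (RBM4B, RBM22 and RBM3, lower) or against it (PTBP2 and RBM24, higher). They come from RefSeq (GRCh38.p14), 5′ to 3′ on the strand of the gene, and leave out bases that any GENCODE 29 exon covers. The genes were taken from those whose calls were kept in at least 12 of 14 other fits and that have 1 listed start. Each also needed a run of at least 150 bases that no exon covers, and at most 3 were taken per direction. The printed genes are not the most extreme calls. A further filter left out genes by their chromosome. It covered the member with the largest fold change, which is not printed. The call of that member was kept in each of the 14 other fits. Capitals mark matches, on either strand, to one of 6 motifs. The ETS motif was searched as CCGGAAG, and the NF-Y motif, a common element of housekeeping promoters, as CCAAT. The letters searched for Sp and KLF factors were GGGCGG. The E-box was searched as CACGTG and the TATA box as TATAAA. For TCF and LEF factors, which act in Wnt signalling, the letters were CTTTGA.
RBM4B (chr11:66677922-66678137, minus strand, ending 34 bases before the listed start): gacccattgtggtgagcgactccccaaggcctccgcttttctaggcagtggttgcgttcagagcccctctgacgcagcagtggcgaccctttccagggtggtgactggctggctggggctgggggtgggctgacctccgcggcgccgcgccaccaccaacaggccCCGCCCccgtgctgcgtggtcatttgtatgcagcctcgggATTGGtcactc
RBM22 (chr5:150701108-150701312, minus strand, ending 45 bases before the listed start): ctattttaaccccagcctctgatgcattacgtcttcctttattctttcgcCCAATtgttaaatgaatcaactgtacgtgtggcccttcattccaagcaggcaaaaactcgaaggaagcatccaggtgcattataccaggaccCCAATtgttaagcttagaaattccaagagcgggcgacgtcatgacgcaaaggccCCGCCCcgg
RBM3 (chrX:48574234-48574448, plus strand, ending 35 bases before the listed start): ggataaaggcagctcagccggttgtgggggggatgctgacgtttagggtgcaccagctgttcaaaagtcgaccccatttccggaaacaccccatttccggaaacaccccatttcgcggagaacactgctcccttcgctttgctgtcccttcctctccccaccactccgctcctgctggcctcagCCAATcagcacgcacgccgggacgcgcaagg
PTBP2 (chr1:96722388-96722637, plus strand, ending at the listed start): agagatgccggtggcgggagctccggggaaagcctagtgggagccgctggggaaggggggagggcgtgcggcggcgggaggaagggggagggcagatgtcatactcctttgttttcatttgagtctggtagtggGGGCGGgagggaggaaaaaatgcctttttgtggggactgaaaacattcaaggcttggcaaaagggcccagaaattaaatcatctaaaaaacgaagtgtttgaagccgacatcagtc
RBM24 (chr6:17281814-17282063, plus strand, ending at the listed start): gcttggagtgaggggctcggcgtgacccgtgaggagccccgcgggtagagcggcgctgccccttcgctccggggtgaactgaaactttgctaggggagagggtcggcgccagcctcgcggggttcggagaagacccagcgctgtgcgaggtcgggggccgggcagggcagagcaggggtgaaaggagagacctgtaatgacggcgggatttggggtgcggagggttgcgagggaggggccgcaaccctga

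In these windows RBM22 had 2 NF-Y matches and 1 Sp/KLF match, RBM4B had 1 of each, RBM3 had 1 NF-Y match, PTBP2 had 1 Sp/KLF match, and RBM24 had none. Over the full 250 bases before the listed start, which 86 of the 96 tested members have in the table, 31.4% of the members held the ETS letters against 16.9% of 9075 tested genes. NF-Y letters were in 43.0% of the members against 35.2% of tested genes, and Sp/KLF letters in 61.6% against 68.9%. The 25 members called lower with a listed start held Sp/KLF letters in 80%, NF-Y letters in 52% and ETS letters in 28%, against 53.6%, 42.9% and 33.9% of the 56 members that were not called. None of these shares was tested, and matches of the different motifs can overlap.

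Among hnRNP genes, 7 of 20 were called lower and 16 had a fitted log2 fold change below 0. Over all genes tested, 11.0% were called lower, and 18.0% of those with a mean of at least 50 CPM. None was called higher by edgeR, DESeq2 or limma-voom, and 0 were higher at an unadjusted p under 0.05 in edgeR. The 7 called genes had log2 fold changes of -0.14 to -0.10. HNRNPM, which binds GU-rich RNA and often blocks exons, was at 774, 770.3 and 770.4 CPM in KO and 833, 829 and 835 CPM in WT. All 3 KO libraries were below all WT libraries (log2 fold change -0.11 ± 0.029, adjusted p 0.00477). HNRNPK, which binds C-rich RNA, was at 1199.5, 1245 and 1236 CPM in KO and 1345, 1309.8 and 1318 CPM in WT, again without overlap (log2 fold change -0.11 ± 0.029, adjusted p 0.00494). These were the hnRNP calls kept in each of the 14 other fits. HNRNPDL (log2 fold change -0.11 ± 0.030, adjusted p 0.00845) was lost only without WT replicate 1 (adjusted p 0.0684). HNRNPC, which binds uridine tracts and keeps cryptic exons out of mRNA, was at 1359, 1390.3 and 1363 CPM in KO and 1465, 1460.4 and 1468 CPM in WT. It was called lower (log2 fold change -0.10 ± 0.028, adjusted p 0.0125), with adjusted p-values of 0.0871, 0.0569 and 0.0687 without KO replicate 3, WT replicate 2 and WT replicate 3.

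HNRNPH2, HNRNPUL1 and HNRNPA3, named after their values were seen, were also called lower, with log2 fold changes of -0.14, -0.10 and -0.10. HNRNPH2 was lost without KO replicate 1 (adjusted p 0.0815) or WT replicate 2 (0.0794), and HNRNPA3 without KO replicate 3 (0.0903) or WT replicate 1 (0.202) and with upper-quartile scaling (0.0503). HNRNPUL1 was lost without KO replicate 2 (0.0602), KO replicate 3 (0.115), WT replicate 1 (0.0540) or WT replicate 2 (0.0831). HNRNPA1 and HNRNPA2B1, whose proteins coat nascent transcripts, were not called. HNRNPA1 averaged 3331 ± 142 CPM in KO and 3466 ± 103 CPM in WT (log2 fold change -0.06 ± 0.031, adjusted p 0.188). HNRNPA2B1 averaged 2535 ± 59.5 CPM in KO and 2551 ± 81.4 CPM in WT (log2 fold change -0.01 ± 0.030, adjusted p 0.856). HNRNPA1 has 74 named pseudogenes, SNRPG 20, SNRPC 18, HNRNPA3 16 and HNRNPC and RBM22 9 each, so their counts may be split with near-identical copies.

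Of the 12 SR protein genes, 3 were called lower, and as for the hnRNP genes none was higher by those tools or at an unadjusted p under 0.05. The shares called lower were 11.0% of all genes tested and 18.0% of those with at least 50 CPM. SRSF2, which recognises exonic enhancers, was at 291, 317 and 317 CPM in KO and 331, 332 and 335 CPM in WT (log2 fold change -0.11 ± 0.033, adjusted p 0.0146). SRSF6 was at 325, 328 and 328 CPM in KO and 358, 343 and 355 CPM in WT (log2 fold change -0.11 ± 0.031, adjusted p 0.0109). SRSF3 was at 741, 826 and 815 CPM in KO and 881, 838 and 827 CPM in WT (log2 fold change -0.10 ± 0.036, adjusted p 0.0496). In all 3 genes every KO library was below every WT library, but no SR call was kept in every fit. SRSF2 was lost without KO replicate 1 (adjusted p 0.0792), WT replicate 2 (0.0523) or WT replicate 3 (0.0695), and SRSF6 without WT replicate 1 (0.0554) or WT replicate 3 (0.0656). SRSF3 was lost in 10 of 14 other fits, among them those without KO replicate 1 (0.23), KO replicate 3 (0.0636), WT replicate 1 (0.25), WT replicate 2 (0.091) or WT replicate 3 (0.0615). SRSF1, the founding member of the family, averaged 484 ± 12.2 CPM in KO and 509 ± 14.7 CPM in WT and was not called (log2 fold change -0.07 ± 0.032, adjusted p 0.0841). The number of SR genes with a fold change below 0 was 9 of 12, and 6 of 12 with upper-quartile scaling.

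Core spliceosome genes had more called lower than higher, as did all genes with at least 50 CPM (18.0% and 12.3%). Over all genes tested, 11.0% were called lower and 12.3% higher. The counts in each group below are small and were not tested against these shares. All 7 genes of the Sm ring, the protein ring that most spliceosomal RNAs carry, had a log2 fold change below 0, with a median of -0.14. The sign held in every alternative fit, but the size did not. The median ran from -0.17 without KO replicate 2 to -0.074 with the GC content and length offsets. It was -0.083 without KO replicate 1. Of the 7 genes, 2 were called. SNRPD3 was at 218, 232 and 232 CPM in KO and 266, 241 and 253 CPM in WT, without overlap (log2 fold change -0.16 ± 0.036, adjusted p 0.00147). SNRPF was at 151, 174 and 161 CPM in KO and 182, 172 and 179 CPM in WT, with 1 KO library inside the WT range (log2 fold change -0.14 ± 0.042, adjusted p 0.0167). The SNRPF call was lost without KO replicate 1 (adjusted p 0.0881), KO replicate 3 (0.0728), WT replicate 1 (0.0930) or WT replicate 3 (0.0689), and with the GC content and length offsets (0.081). SNRPB, the Sm gene with the highest day 0 level, averaged 209 ± 5.35 CPM in KO and 215 ± 8.36 CPM in WT and was not called (adjusted p 0.491).

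Of the proteins particular to the U1 and U2 particles, SNRPC, the U1 protein that steadies pairing with the 5′ splice site, was at 110.0, 113 and 115 CPM in KO and 132, 120.1 and 128 CPM in WT. It fell without overlap (log2 fold change -0.17 ± 0.040, adjusted p 0.0021), and the call was kept in each of the 14 other fits. SNRPA, another U1 protein, averaged 93.4 ± 0.948 CPM in KO and 94.6 ± 1.74 CPM in WT (adjusted p 0.794), and SNRPA1 of U2 averaged 154 ± 5.94 CPM in KO and 153 ± 4.83 CPM in WT (adjusted p 0.865). Of the 9 SF3A and SF3B genes, whose products hold U2 at the branch point, 3 were called lower. SF3B4 was at 113, 111 and 121 CPM in KO and 123, 135 and 128 CPM in WT (log2 fold change -0.16 ± 0.041, adjusted p 0.00483), and the adjusted p was 0.0697 without WT replicate 2. SF3B5 was at 63.6, 68.1 and 62.3 CPM in KO and 71.1, 71.6 and 72.1 CPM in WT (log2 fold change -0.15 ± 0.047, adjusted p 0.0205). For SF3B4 and SF3B5 the genotypes did not overlap, but the SF3B5 call was lost without KO replicate 3 (adjusted p 0.118), WT replicate 2 (0.0536) or WT replicate 3 (0.0692). SF3B6, which touches the branch point adenosine, was at 79.4, 89.0 and 76.3 CPM in KO and 97.2, 85.3 and 95.7 CPM in WT, with overlap (log2 fold change -0.18 ± 0.055, adjusted p 0.019). It was lost without KO replicate 1 (0.0898), KO replicate 3 (0.104), WT replicate 1 (0.107) or WT replicate 3 (0.0880). SF3B1, the largest of these proteins and the one often mutated in blood cancers, averaged 569.8 ± 2.81 CPM in KO and 579 ± 7.77 CPM in WT and was not called (adjusted p 0.641).

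The U2AF pair reads the 3′ splice site, U2AF2 its pyrimidine tract and U2AF1 its AG. U2AF2 was at 462, 452 and 446 CPM in KO and 497, 506 and 511 CPM in WT. It fell without overlap (log2 fold change -0.15 ± 0.030, adjusted p 0.000222), and the call was kept in each of the 14 other fits. U2AF1 was at 19.9, 19.7 and 23.3 CPM in KO and 18.0, 17.7 and 17.4 CPM in WT and was called higher (log2 fold change 0.24 ± 0.078, adjusted p 0.0252). This call is uncertain, because a near-identical copy, U2AF1L5, lies on the same chromosome (U2AF1 at chr21:43092956-43107587, U2AF1L5 at chr21:6484623-6499261, GRCh38). U2AF1L5 was at 16.8, 18.0 and 16.0 CPM in KO and 19.4, 14.4 and 14.1 CPM in WT and was not called (adjusted p 0.554). The sum of the pair was 37.9 ± 1.32 CPM in KO and 33.7 ± 3.27 CPM in WT (SD, n = 3 each), with overlap between genotypes. Without KO replicate 3, WT replicate 2 or WT replicate 3 the adjusted p of U2AF1 was 0.174, 0.0591 or 0.0790. At day 0 U2AF1 was listed at 126 FPKM in KO and 111 FPKM in WT. For comparison, SF3B1 was at 113 and 96.0 FPKM at day 0 and averaged 569.8 and 579 CPM at day 2. The units differ, and why U2AF1 was low at day 2 was not tested.

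PTB proteins repress exons through pyrimidine tracts, and PTBP1 is known to hold down PTBP2, its neural paralog, by making the spliced PTBP2 transcript unstable. PTBP2 was at 58.9, 59.3 and 60.9 CPM in KO and 54.3, 52.7 and 51.2 CPM in WT. All 3 KO libraries were above all WT libraries (log2 fold change 0.18 ± 0.049, adjusted p 0.00708), and the adjusted p was 0.0506 without WT replicate 3. PTBP1 was at 824, 815 and 819 CPM in KO and 875, 869 and 870.1 CPM in WT. All 3 KO libraries were below all WT libraries (log2 fold change -0.09 ± 0.029, adjusted p 0.0229). The PTBP1 call was lost with upper-quartile scaling (adjusted p 0.0671) and without KO replicate 2 (0.0623), KO replicate 3 (0.0990), WT replicate 1 (0.0622), WT replicate 2 (0.0790) or WT replicate 3 (0.0865). Whether the levels of the pair are linked in these cells was not tested.

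Gene structure bears on how these counts can be read. Exons of 52 of the 96 tested members overlap exons of another gene on either strand. Among them are 16 of the 29 members called lower, a share close to that of all members, and none of the 5 called higher. With 5 genes, that absence cannot show a difference. Overlaps were not counted for genes outside the list. In the 44 members without such an overlap, 13 were called lower and 5 higher, against 11.0% and 12.3% of all genes tested. A transcript annotated for nonsense-mediated decay was listed for 53.1% of the members and for 43.1% of all tested genes, and a retained-intron transcript for 61.5% and 57.5%. Gene-level counts do not separate these forms. A few members were low at day 2 although they were well above 1 FPKM at day 0, and the units differ, so the values are only given side by side. HNRNPR, an hnRNP protein related to SYNCRIP, had 10, 4 and 4 counts in the KO libraries and 8, 0 and 10 counts in the WT libraries and was not tested. At day 0 it was listed at 72.6 FPKM in KO and 22.7 FPKM in WT. RBM34 averaged 0.665 ± 0.0649 CPM in KO and 0.815 ± 0.311 CPM in WT, and at day 0 it was listed at 27.8 FPKM in KO and 18.5 FPKM in WT. HNRNPL averaged 24.2 ± 1.98 CPM in KO and 23.9 ± 3.65 CPM in WT, and at day 0 it was listed at 156 FPKM in KO and 129 FPKM in WT. U2AF1, whose values are given above, was another such member. RBM34 shares exons on its own strand with ARID4B, and HNRNPL with AC008982.1.

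At day 0 more members were higher than lower in KO. With 1 library per genotype there is no replicate check and no test, and the depth is unknown. Of the 103 members with at least 1 FPKM in either library, 43 (41.7%) were at least 1.2-fold higher in KO and 10 (9.71%) at least 1.2-fold lower, on the scale of FPKM + 1. Over 13284 genes the shares were 18.9% higher and 26.5% lower. The log2 ratio was above 0 for 72.8% of the members, against 46.2% of all genes, and its median was 0.18 over the members and -0.03 over all genes. Summed over the members, the level was 8808 FPKM in KO and 7189 FPKM in WT. Among members with at least 20 FPKM, 35 of 72 (48.6%) were at least 1.2-fold higher and 2 lower, against 24.5% and 19.9% of all genes at that level.

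Of the 21 hnRNP genes at day 0, 15 were at least 1.2-fold higher in KO, none was that much lower, and the median log2 ratio was 0.42. HNRNPR had a log2 ratio of 1.63. HNRNPM was at 160.0 FPKM in KO and 73.7 FPKM in WT, a log2 ratio of 1.11. HNRNPA2B1, the member with the highest KO level, was at 766 FPKM in KO and 489 FPKM in WT (log2 ratio 0.64), and HNRNPK at 438 FPKM in KO and 289 FPKM in WT (0.60). HNRNPA1 was almost level, at 746 FPKM in KO and 742 FPKM in WT. Of the 12 SR genes 6 were past 1.2-fold higher and 1 lower. SRSF4 had the largest ratio among them, with 54.3 FPKM in KO and 26.6 FPKM in WT (log2 ratio 1.00). The lower one was SRSF12, at 2.15 FPKM in KO and 3.86 FPKM in WT (log2 ratio -0.63). SRSF8, at 5.74 FPKM in KO and 7.0 FPKM in WT (log2 ratio -0.25), was not past 1.2-fold. All 7 Sm ring genes had a ratio above 0, with a median of 0.20, and 2 were past 1.2-fold. SNRPA, the U1 protein, went against them, at 25.4 FPKM in KO and 38.4 FPKM in WT (log2 ratio -0.58).

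**Figure D4:**
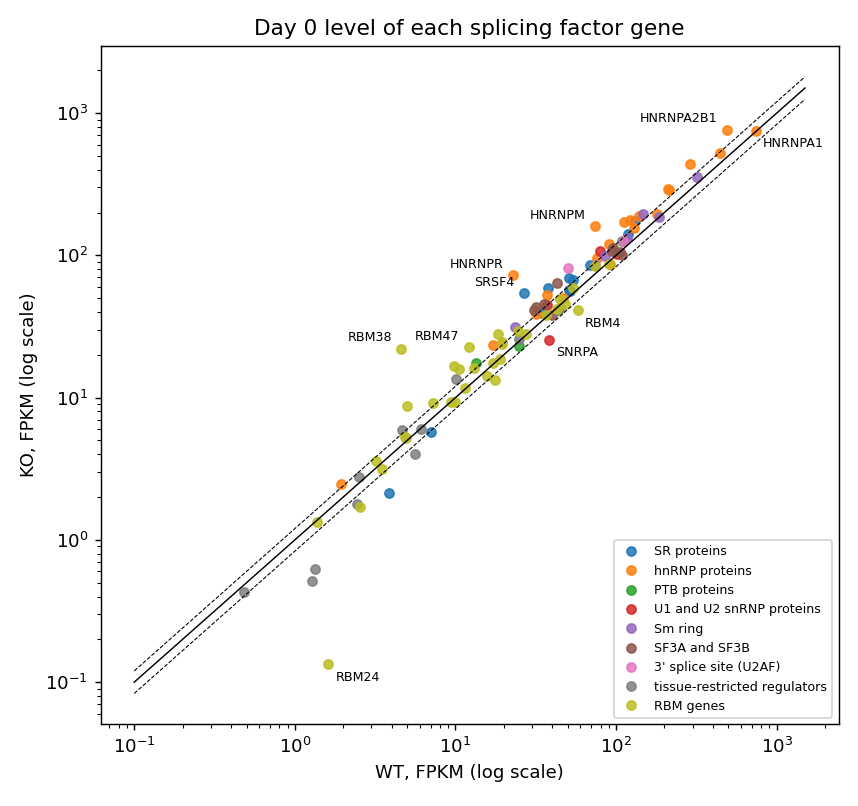
Day 0 level of each splicing factor gene in the KO library (y axis) against the WT library (x axis), both in FPKM on log scales, coloured by role; the solid line marks equal levels and the dashed lines a 1.2-fold difference. Most hnRNP genes lie above the upper dashed line, and RBM38 (22.1 FPKM in KO, 4.57 in WT) and HNRNPR lie farthest above it.

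RBM genes spread widest at day 0, with log2 ratios between -1.21 and 2.05. RBM38, an RNA-binding target of p53 that stabilises transcripts, was at 22.1 FPKM in KO and 4.57 FPKM in WT. At day 2 it averaged 49.6 ± 0.723 CPM in KO and 51.4 ± 2.12 CPM in WT and was not called (log2 fold change -0.05 ± 0.052, adjusted p 0.519). RBM47, also a cofactor of RNA editing, was at 22.8 FPKM in KO and 12.1 FPKM in WT at day 0 (log2 ratio 0.86). RBM24 was close to 0 in KO at day 0, at 0.133 FPKM, against 1.62 FPKM in WT (log2 ratio -1.21), so its ratio rests on low values: it was -2.88 with a pseudocount of 0.1 FPKM and -0.37 with 5 FPKM. RBM4 was at 41.0 FPKM in KO and 57.7 FPKM in WT (-0.48), and RBM12B at 13.3 FPKM in KO and 17.6 FPKM in WT (-0.38). The tissue-restricted regulators did not share the upward direction: 2 of 11 were at least 1.2-fold higher and 4 lower. ESRP1 was near level, at 42.6 FPKM in KO and 44.8 FPKM in WT, and CELF2 was at 4.03 FPKM in KO and 5.62 FPKM in WT (-0.40). The muscleblind genes were low, MBNL1 at 2.78 FPKM in KO and 2.51 FPKM in WT, MBNL2 at 0.511 FPKM in KO and 1.29 FPKM in WT, and MBNL3 at 0.626 FPKM in KO and 1.33 FPKM in WT.

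The 2 days are set side by side here, each from its own table. Of the 96 genes tested at day 2 and measured at day 0, 58 had a day 0 ratio above 0 and a day 2 fold change below 0. Of the 29 that fell at day 2, 20 had a day 0 ratio above 0, 12 were at least 1.2-fold higher at day 0, and 1, MBNL3, was at least 1.2-fold lower. Over all members with at least 1 FPKM, 72.8% had a day 0 ratio above 0 and 41.7% were at least 1.2-fold higher. The genes that fell were therefore not more often higher at day 0 than the members in general. HNRNPM had a day 0 log2 ratio of 1.11 and a day 2 log2 fold change of -0.11, and U2AF2 had 0.67 and -0.15. Of the 5 genes that rose at day 2, CELF2 and RBM24 were at least 1.2-fold lower at day 0, and PTBP2 and RBFOX3 at least 1.2-fold higher. Across the 96 genes, the 2 effects had a Pearson correlation of -0.08 and a Spearman correlation of -0.05, a description over genes that share libraries and differ in unit. The day 0 effects have no replicate, so the difference between the days was not tested.

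**Figure D5:**
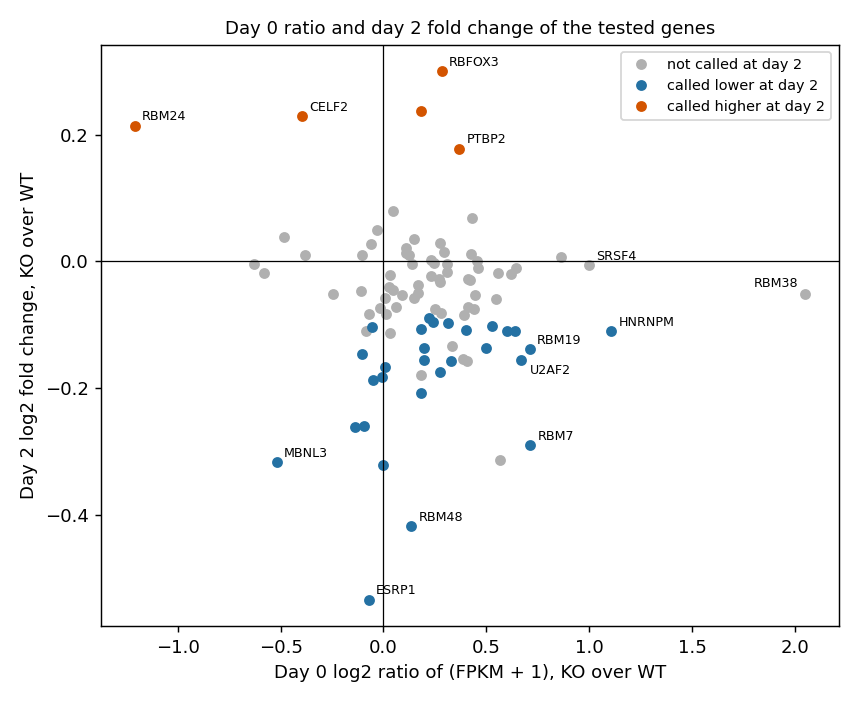
Each point is 1 of the 96 tested splicing factor genes, with its day 0 log2 ratio of FPKM + 1 (KO over WT, 1 library each, x axis) and its day 2 log2 fold change (KO over WT, 3 libraries each, y axis). Most points called lower at day 2 (blue) lie right of 0, 20 of 29, and RBM24 and CELF2 lie at the upper left. Over all members with at least 1 FPKM at day 0, 72.8% had a ratio above 0.

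Splicing genes outside the 11 families had fewer calls. Of 94 tested, 10 were called lower and 2 higher at day 2, against backgrounds of 11.0% and 12.3%, and their median log2 fold change was -0.03. They summed to 17151.5 to 17364 CPM in KO and 17425 to 17575 CPM in WT, also without overlap between genotypes. The called ones included CDC5L and BCAS2 of the Prp19 complex, which steadies the active spliceosome, with log2 fold changes of -0.20 and -0.19. They also included LSM3 (-0.16) and LSM5 (-0.19) of the ring on U6 RNA, and EIF4A3 (-0.14), which binds beside RBM8A in the exon junction complex. None of the 16 tri-snRNP genes tested was called by edgeR, DESeq2 or limma-voom, while 4 were lower and 0 higher at an unadjusted p under 0.05 in edgeR. Some of these genes had few counts, so a small difference in them could hardly be called. PRPF8 averaged 0.238 CPM in KO and 0.441 CPM in WT, although it was at 34.3 and 27.0 FPKM at day 0. PRPF31 averaged 2.50 and 2.41 CPM. Outside that complex, DDX39B averaged 2.74 CPM in KO and 2.31 CPM in WT. KHDRBS3, a regulator of alternative exons, was called higher (log2 fold change 0.57), as was the SR protein kinase CLK3 (0.19). At day 0, 17 of 97 such genes were at least 1.2-fold higher in KO and 9 lower, against 18.9% and 26.5% of all genes with at least 1 FPKM. Against the same backgrounds, none of the 8 minor spliceosome genes was at least 1.2-fold higher and 4 were lower, from 1 library per genotype. Their median log2 ratio was -0.30. Among them SNRNP25 was at 18.4 FPKM in KO and 37.2 FPKM in WT at day 0, and it was called lower at day 2 with a log2 fold change of -0.20.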

How the data were processed

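Expression was measured by RNA-seq in 8 libraries of H1 cells, grouped by the genotype and day in their labels. Per the labels' protocols, TRIzol was used for RNA extraction and a SMARTER mRNA-Seq kit for the libraries. The submitters' processing notes name HISAT2, StringTie and GRCh38, with no versions. How reads were counted, with which strand setting and annotation, is not given in the sources used here. The day 2 table holds counts per gene as deposited, whole numbers that were not normalized, and the day 0 table holds FPKM computed by the authors, per the file headers. The 2 units were never combined. The day 0 depth is unknown.

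Day 2 counts were filtered with filterByExpr, TMM-scaled and fitted on all 11475 genes with edgeR 4.0.16 in R 4.3.3 (robust quasi-likelihood F test, 2-sided). Genotype was the only term, and genes under an adjusted p (Benjamini-Hochberg) of 0.05 were called. The biological coefficient of variation was 4.14%, and the steps were tested on simulated counts. Day 0 genes that reached 1 FPKM in a library got a log2 ratio of FPKM + 1, with no test. Pairs of libraries differed by more than sampling noise (chi-square per degree of freedom of at least 3.04), so none was counted as a duplicate. Positions, overlaps and transcript types are from GENCODE 29 (GRCh38).

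Named in full were, per role group, up to 4 called members with the smallest p (10 for RBM), called members of at least 0.3 log2 units, the member with the highest day 0 FPKM, the 5 highest and 5 lowest day 0 ratios at 5 FPKM or more, and a fixed set of well-known genes. The other members were named after their values were seen. The members, roles, other splicing genes and marker lists were chosen with earlier results of these data known. Alternatives were DESeq2 1.42.0 (its size factors and its Wald test), upper-quartile scaling, limma-voom (limma 3.58.1), no count filter, a mean of 1 CPM, a block for replicate number, a 1.2-fold minimum (glmTreat), each library left out, and at day 0 other pseudocounts, minimums and centring. Offsets for GC content and length, the 50 CPM and 20 FPKM minimums and the fit without overlapping members were chosen after seeing the data. Python 3.11.15 with pandas 2.3.3, numpy 2.4.6 and matplotlib 3.10.9 was used.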

Additional observations from a re-analysis of the deposited data

Results flagged for a closer look

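For 14 splicing factor genes the call at day 2 was of the other sign than a day 0 ratio past 1.2-fold. Of all members with at least 1 FPKM, 41.7% were at least 1.2-fold higher in KO at day 0 and 9.71% at least 1.2-fold lower. The day 0 side has 1 library per genotype, so the difference between the days was not tested. All values are KO over WT, the day 0 log2 ratio of FPKM + 1 first and the day 2 log2 fold change second, and the days have different units.

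Among hnRNP genes, HNRNPM was at 1.11 and -0.11, HNRNPK at 0.60 and -0.11, HNRNPA3 at 0.53 and -0.10, HNRNPH2 at 0.50 and -0.14, and HNRNPDL at 0.40 and -0.11. Among RBM genes, RBM7 was at 0.71 and -0.29, RBM19 at 0.71 and -0.14, and RBM27 at 0.27 and -0.18. Of the SR genes, SRSF2 was at 0.64 and -0.11, and SRSF3 at 0.31 and -0.10. U2AF2 was at 0.67 and -0.15, and SF3B4 at 0.33 and -0.16. In the opposite sense, RBM24 was at -1.21 and 0.21, and CELF2 at -0.40 and 0.23.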

How the results depend on the processing

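The calls of ESRP1, HNRNPK, HNRNPM, MBNL3, RBM22, RBM3, RBM39, RBM48, RBM4B, RBM7, RBM8A, SNRPC, SNRPD3 and U2AF2 were kept in all 14 other fits that test for any difference, and the other calls were lost in at least 1. Against a 1.2-fold change, 0 members were called higher and 1 lower. Offsets for GC content and length gave 45 lower and a median log2 fold change of -0.075, and upper-quartile scaling moved that median to -0.040. The median over all genes moved the same way, from -0.0026 to -0.023 with the offsets and to 0.013 with upper-quartile scaling. Of the 73 members with at least 50 CPM, 1 was called higher and 24 lower. Without the 52 members that share exons with another gene, 13 of the rest were called lower and 5 higher. Their median log2 fold change was -0.055. Leaving out 1 library at a time gave 0 to 4 calls higher, 21 to 28 lower and medians of -0.075 to -0.048. The day 0 median was 0.188 and 0.173 with pseudocounts of 0.1 and 5 FPKM, 0.215 centred on all genes, 0.183 without a minimum, 0.234 at 5 FPKM and 0.248 at 20 FPKM. Genes that were not called changed sign: HNRNPA2B1 (0.0061) and SRSF4 (0.0095) with upper-quartile scaling, and RBM12B (-0.00021) and RBM47 (-0.030) with the offsets. With 1 library left out, the log2 fold change spanned -0.024 to 0.017 for HNRNPA2B1, -0.018 to 0.058 for RBM12B, -0.050 to 0.156 for RBM4, -0.049 to 0.086 for RBM47, -0.013 to 0.046 for SNRPA1, -0.027 to 0.022 for SRSF4 and -0.046 to 0.157 for HNRNPL. SRSF12, at -0.0046 and not called, was at 0.011 with upper-quartile scaling, 0.0017 in limma-voom, 0.013 with the replicate block, 0.0023 with the offsets, and -0.104 to 0.172 with 1 library left out. Centred on all genes, the day 0 ratios of RBM4B and SF3B6 became 0.029 and 0.025. The causes were not tested. Deviations from the genotype mean had correlations of -0.07, -0.07 and -0.04 between same-numbered KO and WT libraries. With 3 libraries per genotype these values cannot settle whether the libraries were handled in pairs, which the labels do not say. With the replicate number as a block, 4 members were called higher and 25 lower, and 28 of the 34 calls were kept. The calls lost with it were HNRNPA3 (adjusted p 0.0652), HNRNPC (0.0563), PTBP1 (0.0781), RBFOX3 (0.0582), RBM19 (0.0534) and SRSF3 (0.109). Day 0 has no replicates, and HNRNPR had 0 to 10 counts per day 2 library and was not tested.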

Other observations

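Marker lists outside the comparisons of splicing factor genes gave these values at day 2, as levels summed over the tested genes of each list. Of 4 fibroblast markers, 2 were called higher in KO and 1 lower, and the list summed to 487 to 510 CPM in KO and 356 to 373 CPM in WT. Of 5 mesenchymal markers, 1 was called higher and 2 lower, with 1914 to 1963 CPM in KO and 2041 to 2055 CPM in WT. Of 2 endoderm markers, 1 was called lower, with 104 to 111 CPM in KO and 154 to 160 CPM in WT. Of 2 trophoblast and amnion markers, 1 was called lower, with 38.5 to 40.7 CPM in KO and 43.9 to 44.9 CPM in WT. The pluripotency list summed to 2492 to 2509 CPM in KO and 2351 to 2366 CPM in WT. Their part in the levels of the splicing factor genes was not tested.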
